A study of Mus musculus with 12 samples.

Results

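The genes that add, copy and oxidise DNA methylation, together with the maternal factors that protect it, were followed in single mouse oocytes. These 9 genes were grouped by function, with earlier results of these data known, and they were found by their Ensembl gene identifiers among the 55573 genes of the deposited counts. Dnmt3a and Dnmt3b are de novo DNA methyltransferases and Dnmt3l is their catalytically inactive cofactor. Dnmt1 copies methylation onto newly replicated DNA, and Uhrf1 brings it to hemimethylated sites. Tet3 oxidises methylcytosine in the zygote. Dppa3 (also called Stella or PGC7), Zfp57 and Trim28 protect maternal or imprinted methylation after fertilisation.

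Oocytes acquire most of their DNA methylation while they grow, in a process that needs Dnmt3a and Dnmt3l. The fully grown oocyte stores transcripts and proteins for the embryo, including factors that act on methylation before the embryonic genome is active. Zfp57 binds a methylated motif at imprinted regions and recruits Trim28, which assembles repressive chromatin.

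The study sequenced poly(A) RNA from single oocytes and from fractions of oocytes, and gives the purpose of the fractions as illustrating spike-in normalization. The oocytes were at the germinal vesicle (GV) stage, fully grown with an intact nuclear envelope, and according to the methods came from a B6D2F1 female aged 12 weeks, with M2 medium and milrinone at collection. No treatment differed between the 6 groups of 2 libraries each: whole oocytes amplified for 10, 14 or 18 cycles, and 1/2, 1/4 or 1/8 of an oocyte. According to the methods, the fractions were diluted lysates of 2 oocytes and were amplified for 18 cycles, the 6 whole-oocyte libraries came from 6 other oocytes, and all 12 libraries received the same amount of spike-in RNA from the External RNA Controls Consortium (ERCC). An effect of cycle number cannot be told apart from differences between oocytes or preparations in these libraries. The methods write of a single female and give no preparation days, so p-values measure only the spread between these libraries and not between animals.

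Whole oocytes had 11597144 and 9189672 counts on genes at 10 cycles, 12349577 and 13806199 counts at 14 cycles, and 3017069 and 1706478 counts at 18 cycles. The fractions had 4024670 and 3598549 counts at 1/2, 4027907 and 5049518 at 1/4, and 11404262 and 1702062 at 1/8. Depth was therefore lowest at 18 cycles among the whole oocytes and unequal between the 2 libraries at 1/8. The 9 genes had between 27 counts (Dnmt3b in library 2 at 1/2) and 36050 counts (Dnmt1 in library 2 at 14 cycles). All 9 passed the filter of 5 or more counts in 2 or more libraries in each fit. Values in a library are given as counts per 1000000 of that library's gene counts (CPM). CPM is a share, so it does not tell a gene with less RNA from a library with more of other RNA. Levels of different genes are compared per length, as counts per kilobase of the gene's merged exons scaled like CPM in each library, unless counts are named.

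Per length, Dppa3 was the most abundant of the 9 genes in whole oocytes at 10 and 14 cycles, with a level of 5916 ± 554 (SD, n = 4), which ranked 9th of the 18021 genes that had 5 or more counts in 2 or more of the 12 libraries. Dnmt1 followed at a level per length of 1143 ± 101 and Zfp57 at 1079 ± 92.1, and these neighbours overlapped, with ranges of 1014 to 1239 and 954 to 1176. Uhrf1 came next at 591 ± 108 per length, below both without overlap (460.0 to 720.1). The level of Tet3 per length was 278 ± 31.0, ranking 535th. Trim28 at 153 ± 51.5 and Dnmt3l at 136 ± 5.22 per length could not be separated, because the 4 values of Trim28 ran from 96.2 to 199 and those of Dnmt3l from 132 to 143. Dnmt3a had a level per length of 61.5 ± 4.79 and Dnmt3b the lowest of the 9 at 14.1 ± 1.66, ranks 3107 and 7867. Stored transcripts of the protector Dppa3 and the maintenance enzyme Dnmt1 thus exceeded those of the de novo enzymes in each of these 4 libraries, on the per-length scale.

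The order varied among the 12 libraries. Dppa3 held rank 1 or 2 of the 9 by level per length, Zfp57 rank 1 to 3 and Dnmt1 rank 2 to 4. Trim28 moved most, between rank 3 and rank 7. Dnmt3a and Dnmt3b held ranks 8 and 9 in each library, in either order. The highest CPM exceeded the lowest by 8.49-fold for Trim28 and 7.34-fold for Dppa3. That ratio was 4.76 for Dnmt3b, 4.33 for Dnmt3l, 4.10 for Dnmt3a, 2.72 for Dnmt1, 2.39 for Uhrf1, 1.97 for Zfp57 and 1.67 for Tet3.

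**Figure D1:**
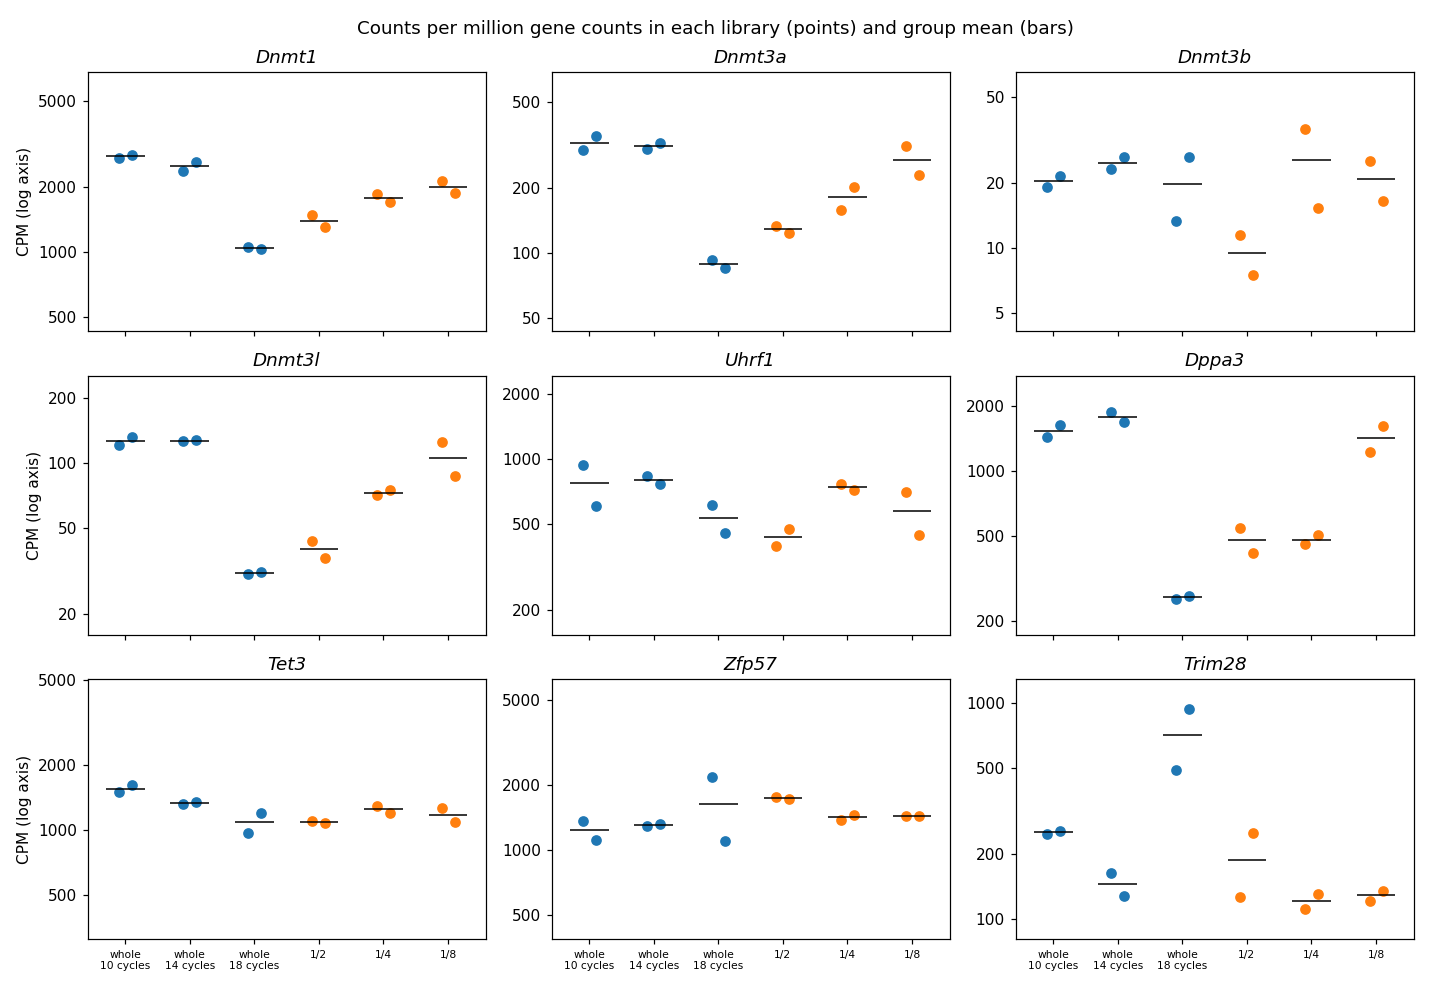
CPM (log axis) of the 9 genes in each of the 12 libraries (points; blue, whole oocytes; orange, fractions), with group means of 2 libraries as bars. Dnmt1, Dnmt3a, Dnmt3l and Dppa3 were lowest in whole oocytes at 18 cycles and Trim28 was highest there (490.2 and 938 CPM). With ERCC size factors, not plotted, the fold changes of Dnmt1, Dnmt3a and Dnmt3l between 10 and 18 cycles were positive and not called. Per ERCC count, these groups overlapped for Dnmt3a and Dnmt3l.

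Groups were compared by edgeR's quasi-likelihood test, adjusted by the Benjamini-Hochberg method over all genes tested, and a gene was called at an adjusted p below 0.01. Library size factors came from the median ratio over genes or from the ERCC molecules. The median ratio sets a gene against the other genes, and ERCC size factors set it against the added spike-in. Comparisons below use the median ratio unless ERCC is named, fold changes are log2 values with their standard error (SE), and each group had 2 libraries.

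Between 10 and 18 cycles, 4 of the 9 genes fell (Dnmt1, Dnmt3a, Dnmt3l and Dppa3) and 1 rose (Trim28). Under ERCC size factors Dnmt1, Dnmt3a and Dnmt3l had positive fold changes instead, which were not called. Of all 17532 genes tested, 10.8% were called lower and 12.3% higher. Under ERCC size factors this split was 0 lower and 8348 higher, against 1898 lower and 2155 higher by the median ratio. The median log2 fold change of all genes was -0.29 by the median ratio and 1.96 with ERCC size factors. Relative to that median, the changes were -0.85 for Dnmt1, -1.31 for Dnmt3a, -1.49 for Dnmt3l, -2.01 for Dppa3 and 2.09 for Trim28. With ERCC size factors the corresponding values were -0.88, -1.34, -1.52, -2.06 and 1.92, since a change of size factors moves all genes of a library alike. Without library 1 at 10 cycles 3 members and 1909 genes were called, and without library 2 at 10 cycles 3 members and 1616 genes, in place of 5 members and 4053 genes.

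The comparison of 18 with 14 cycles shares the libraries at 18 cycles with the one above. It called the same 5 genes in the same directions, where 10.7% of all genes were called lower and 12.5% higher. ERCC size factors gave 2 genes lower and 8398 higher, and the fold changes of Dnmt1, Dnmt3a, Dnmt3b, Dnmt3l and Uhrf1 were then positive. Between 10 and 14 cycles edgeR called 0 of the 9 genes and 0% of all genes, with 513 genes at an unadjusted p below 0.05 and 2 genes called by DESeq2. Trim28 had an unadjusted p of 0.0248 there and an adjusted p of 1.00 by edgeR's quasi-likelihood test, with a fold change of -0.83 ± 0.32.

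Dnmt3a, the de novo enzyme of the growing oocyte, had 299 and 351 CPM at 10 cycles, 305 and 325 CPM at 14 cycles, and 93.1 and 85.6 CPM at 18 cycles. The fractions gave 134 and 124 CPM at 1/2, 159 and 204 CPM at 1/4, and 312 and 230.3 CPM at 1/8. Both libraries at 18 cycles lay below the other 10, while library 1 at 1/8 lay within the range at 10 cycles. From 10 to 18 cycles the log2 fold change of Dnmt3a was -1.60 ± 0.20 (adjusted p = 0.000263). With ERCC size factors it was 0.62 and not called (adjusted p = 0.211). Per ERCC count, Dnmt3a overlapped between these groups: library 1 of the whole oocytes at 18 cycles lay above both libraries at 10 cycles, and library 2 lay between them. Against whole oocytes at 18 cycles, 1/8 of an oocyte had a fold change of 1.41 ± 0.28 (adjusted p = 0.000956), against -3.55 with ERCC size factors. That call was lost without library 1 at 18 cycles (1.38, adjusted p = 0.0128) and without library 1 at 1/8 (1.18, adjusted p = 0.0111). Dnmt3a shares 133 bases of exon with the antisense gene Dnmt3aos, and the sources used here do not settle whether counting used strand.

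Its cofactor Dnmt3l had 121 and 132 CPM at 10 cycles, 126 and 128 CPM at 14 cycles, and 30.5 and 31.1 CPM at 18 cycles. In the fractions the values were 43.2 and 36.4 CPM at 1/2, 71.3 and 74.5 CPM at 1/4, and 125 and 87.0 CPM at 1/8. The 4 groups at 18 cycles did not overlap one another in Dnmt3l, with whole oocytes lowest and 1/8 highest. The fold change from 10 to 18 cycles was -1.78 ± 0.21 (adjusted p = 0.000187). With ERCC size factors it was 0.44 and not called (adjusted p = 0.412). Per ERCC count, Dnmt3l overlapped between these groups: library 1 of the whole oocytes at 18 cycles lay above both libraries at 10 cycles, and library 2 lay below both. In 1/8 of an oocyte Dnmt3l was higher than in whole oocytes at 18 cycles by 1.59 ± 0.33 on the log2 scale (adjusted p = 0.00121; -3.35 with ERCC size factors), a call lost without library 1 at 18 cycles (1.49, adjusted p = 0.0210) and without library 1 at 1/8 (1.32, adjusted p = 0.0145). The level of Dnmt3l per length was 1.64 to 2.50 times that of Dnmt3a in the 12 libraries. Dnmt3l shares 67 bases of exon with Aire on the opposite strand.

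Dnmt3b, the other de novo enzyme, was low in each library. It had 19.1 and 21.5 CPM at 10 cycles, 23.2 and 26.3 CPM at 14 cycles, and 13.3 and 26.4 CPM at 18 cycles. The fractions gave 11.4 and 7.50 CPM at 1/2, 35.8 and 15.2 CPM at 1/4, and 25.2 and 16.5 CPM at 1/8. The values at 18 cycles, 1/4 and 1/8 spanned those at 10 cycles, and the 2 values at 1/2 were the lowest of the 12. The lowest value rested on 27 counts, with a 95% Wilson interval of 5.16 to 10.9 CPM. Wilson intervals cover counting error only, because amplified reads without molecular identifiers are not independent molecules. The fold change was 0.20 ± 0.37 from 10 to 18 cycles (adjusted p = 0.699), where ERCC size factors gave 2.33 and a call (adjusted p = 0.000254), and -1.08 ± 0.52 at 1/2 against whole oocytes (adjusted p = 0.381), where they gave -2.92 and a call (adjusted p = 0.000168).

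Dnmt1, the maintenance enzyme, had 2728 and 2821 CPM at 10 cycles, 2374 and 2611 CPM at 14 cycles, and 1059 and 1036 CPM at 18 cycles. The fractions gave 1487 and 1302 CPM at 1/2, 1861 and 1703 CPM at 1/4, and 2127 and 1874 CPM at 1/8. Both whole oocytes at 18 cycles were below the other 10 libraries, and the means of the fractions were ordered from 1/2 to 1/8. Dnmt1 fell by 1.14 ± 0.19 on the log2 scale between 10 and 18 cycles (adjusted p = 0.00116), whereas ERCC size factors gave a fold change of 1.08, not called (adjusted p = 0.0262). This call was lost without library 1 at 10 cycles (-1.20, adjusted p = 0.0118) and without library 2 at 10 cycles (-1.08, adjusted p = 0.0171). Between 14 and 18 cycles the fold change was -0.95 ± 0.19 (adjusted p = 0.00315), while with ERCC size factors it was 1.30 and called higher (adjusted p = 0.00875). The call by the median ratio was lost without library 1 (-0.94) or library 2 at 10 cycles (-0.95). It was also lost without library 1 (-0.999) or library 2 at 14 cycles (-0.89). At 1/8 the fold change against whole oocytes was 0.73 ± 0.26 (-4.21 with ERCC size factors), not called by edgeR (adjusted p = 0.0412) and called by DESeq2 (adjusted p = 0.00731).

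Uhrf1, which recruits Dnmt1 to hemimethylated DNA, had 942 and 604 CPM at 10 cycles, 833 and 768 CPM at 14 cycles, and 614 and 452 CPM at 18 cycles. Its values were 394 and 472 CPM at 1/2, 767 and 716 CPM at 1/4, and 699.9 and 442 CPM at 1/8. The groups at 10 and 18 cycles overlapped, and the libraries at 10 cycles differed by more than the means of these groups did. The fold change between them was -0.27 ± 0.23 (adjusted p = 0.376), and 2.05 with ERCC size factors, where it was called (adjusted p = 0.000265). The ratio of Dnmt1 to Uhrf1 by level per length ran from 0.995 to 2.69 over the 12 libraries.

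Tet3, the dioxygenase that oxidises methylcytosine in the zygote, varied least of the 9 genes in CPM across the 12 libraries. It had 1504 and 1618 CPM at 10 cycles, 1321.5 and 1353 CPM at 14 cycles, and 967 and 1208 CPM at 18 cycles. The fractions gave 1102 and 1078 CPM at 1/2, 1299 and 1199.7 CPM at 1/4, and 1263 and 1091 CPM at 1/8. Whole oocytes at 10 cycles were highest without overlap with the other 10 libraries. The fold change from 10 to 18 cycles was -0.24 ± 0.22 (adjusted p = 0.394), against 1.92 with ERCC size factors, where it was called (adjusted p = 0.000287).

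Dppa3, the maternal factor that shields the maternal genome from oxidation by Tet3, had the lowest fold change of the 9 genes at 18 cycles by the median ratio. It had 1438 and 1626 CPM at 10 cycles, 1869 and 1675 CPM at 14 cycles, and 255 and 263 CPM at 18 cycles. The fractions gave 544 and 413 CPM at 1/2, 456 and 501 CPM at 1/4, and 1224 and 1605 CPM at 1/8. Both libraries at 18 cycles were below the other 10, those at 1/2 and 1/4 overlapped at an intermediate value, and library 2 at 1/8 lay within the range at 10 cycles. From 10 to 18 cycles the fold change of Dppa3 was -2.30 ± 0.21 (adjusted p = 7.64e-05), and -0.10 with ERCC size factors, where it was not called (adjusted p = 0.849). Against 14 cycles it was -2.47 ± 0.21 (adjusted p = 5.85e-05), or -0.24 and not called with ERCC size factors (adjusted p = 0.635). In 1/8 of an oocyte it was 2.25 ± 0.29 above whole oocytes at 18 cycles on the log2 scale (adjusted p = 1.72e-05), and -2.70 with ERCC size factors. The fold changes at 1/2 and 1/4 were 0.85 ± 0.28 (adjusted p = 0.151) and 0.75 ± 0.28 (adjusted p = 0.181), neither of them called, against -1.08 and -1.97 with ERCC size factors.

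On the ERCC scale, Dppa3 had 465 and 585 counts per 1000 ERCC counts at 10 cycles, 648 and 592 of them at 14 cycles, and 477 and 304 of them at 18 cycles. The groups at 10 and 18 cycles therefore overlapped for Dppa3, although its CPM differed more than that of the other 3 genes that fell. Dnmt1 on this scale had 883 and 1016 counts per 1000 ERCC counts at 10 cycles and 1983 and 1199 at 18 cycles, higher at 18 cycles in both libraries and opposite to its CPM. All genes together gave 323 and 360.0 gene counts per ERCC count at 10 cycles, and 1873 and 1158 at 18 cycles, where 1611 and 1474 ERCC counts were found in all.

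Zfp57, the zinc finger protein that recognises methylated imprints, had 1367 and 1115 CPM at 10 cycles, 1302 and 1325 CPM at 14 cycles, and 2179.6 and 1105 CPM at 18 cycles. The fractions gave 1759.65 and 1738 CPM at 1/2, 1387 and 1458 CPM at 1/4, and 1439 and 1441 CPM at 1/8. The 2 libraries at 18 cycles were the highest and the lowest of the 12, so they spanned the other groups. The fold change from 10 to 18 cycles was 0.65 ± 0.26 and not called (adjusted p = 0.0743), and with ERCC size factors it was 3.02 and called (adjusted p = 1.33e-05). Against 14 cycles ERCC size factors gave 2.97 (adjusted p = 1.50e-05), where the median ratio gave 0.60 ± 0.26 (adjusted p = 0.0947). Without library 2 at 18 cycles it was 1.03 and was called (adjusted p = 0.00190), and the value against 14 cycles was then 0.99 (adjusted p = 0.00233).

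Trim28, the scaffold that Zfp57 recruits, went the opposite way from Dppa3. It had 248 and 256 CPM at 10 cycles, 162 and 127 CPM at 14 cycles, and 490.2 and 938 CPM at 18 cycles. The fractions gave 126 and 249.8 CPM at 1/2, 110.5 and 131 CPM at 1/4, and 121 and 135 CPM at 1/8. Both whole oocytes at 18 cycles were above the other 10 libraries, and they differed from each other by more than the groups at 10 and 14 cycles did. Trim28 was higher at 18 than at 10 cycles by 1.80 ± 0.32 on the log2 scale (adjusted p = 0.00175), and by 3.88 with ERCC size factors. The call was lost without library 1 at 10 cycles (1.74, adjusted p = 0.0313) and without library 2 at 10 cycles (1.86, adjusted p = 0.0269). Against 14 cycles the fold change was 2.63 ± 0.33 (adjusted p = 0.000260).

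In the fractions, Trim28 was lower than in whole oocytes at 18 cycles at each dilution. The fold change was -1.996 ± 0.35 at 1/2 (adjusted p = 0.00864), -2.73 ± 0.36 at 1/4 (adjusted p = 0.000255) and -2.70 ± 0.36 at 1/8 (adjusted p = 2.37e-05). At 1/2 it was the 1 member called, where 0.0406% of the 14788 genes tested were called lower and 0.0811% higher. That call was lost without library 2 at 18 cycles (-1.37, adjusted p = 0.101), library 1 at 1/8 (-1.996, adjusted p = 0.0184), library 1 at 1/2 (-1.61, adjusted p = 0.409) or library 2 at 1/2 (-2.52, adjusted p = 0.0107), and with TMM normalization (-1.95, adjusted p = 0.0112). At 1/4 it was again the 1 member called, where 0.426% of all genes were lower and 0.0338% higher. Without library 2 at 18 cycles the fold change at 1/4 was -2.11 and was not called (adjusted p = 0.0134).

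At 1/8, 3 members were higher than in whole oocytes at 18 cycles (Dppa3, Dnmt3l and Dnmt3a) and 1 was lower (Trim28), where 7.06% of the 14788 genes were called higher and 8.69% lower. The median fold change of all genes there was 0.03. The number of members called was 2 without library 1 at 18 cycles and 2 without library 1 at 1/8, and the number of genes fell from 2329 to 1098 without library 1 at 18 cycles and to 1307 without library 2 at 1/8. The other 5 members had fold changes between -0.37 (Zfp57) and 0.73 (Dnmt1). The comparisons at 1/2, 1/4 and 1/8 share the whole oocytes at 18 cycles with each other and with the comparisons of cycle number. According to the methods their fractions also came from the same 2 oocytes, although the main fit treated all libraries as independent. With ERCC size factors the fold changes of Dppa3, Dnmt3l and Dnmt3a at 1/8 were negative like those of the other members.

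ERCC size factors bring the dilution itself into the fold change, which would be -1 at 1/2, -2 at 1/4 and -3 at 1/8 for equal oocytes. On this scale 8 of the 9 members were lower at 1/2, where 52.0% of all genes were called lower. Dppa3 was the 1 not called, at -1.08 ± 0.46 (adjusted p = 0.0339), and it was called when all 12 libraries were fitted in 6 groups (-1.18, adjusted p = 0.00714), with the replicate number as a block (-1.10, adjusted p = 0.00325) and without library 2 at 18 cycles (-1.41, adjusted p = 0.00556). The median log2 fold change at 1/2 was -1.96 over the 9 members and -1.997 over all genes. Without library 1 at 18 cycles 3081 genes were called in place of 7697, and without library 2 at 1/2 the number was 1930. Of the members' 8 calls, 4 remained without library 1 at 18 cycles, when those of Dnmt1, Dnmt3a, Dnmt3l and Zfp57 were lost, and 2 without library 2 at 1/2, when those of Dnmt1, Dnmt3a, Dnmt3b, Dnmt3l, Tet3 and Zfp57 were lost. Dnmt3a was not called either without library 1 at 1/2 (-1.85, adjusted p = 0.0104), and Dnmt3a and Dnmt3l were not called without library 1 at 1/4 (-1.45 and -1.58, adjusted p = 0.0127 and 0.0145) or library 2 at 1/4 (-1.46 and -1.59, adjusted p = 0.0121 and 0.0138).

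At 1/4 on the ERCC scale, 9 of the 9 members were lower, from -1.62 ± 0.52 for Dnmt3l to -5.34 ± 0.53 for Trim28, where 69.7% of all genes were called lower with a median of -2.69. Without library 2 at 1/4, 5 of the 9 members and 6703 genes in place of 10301 were called, and Dnmt3a, Dnmt3b, Dnmt3l and Dppa3 were not. The calls of Dnmt3a and Dnmt3l were also lost without library 1 at 18 cycles (-1.36 and -1.19, adjusted p = 0.0135 and 0.0492) and without library 1 at 1/4 (-1.86 and -1.76, adjusted p = 0.0129 and 0.0293). At 1/8, 9 of the 9 were lower, from -2.70 ± 0.48 for Dppa3 to -7.53 ± 0.59 for Trim28, where 87.5% of all genes were lower with a median of -4.92. Dppa3, the factor that shields maternal methylation, thus lay 2.22 above the median gene at 1/8 on this scale, and Trim28 lay at -2.61 relative to it.

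Whole oocytes at 10 and 14 cycles served as other references for 1/8 of an oocyte in a fit of all 12 libraries, chosen after earlier results were known. Against 10 cycles edgeR called 0 of the 9 members and 0% of 18041 genes, with 2278 genes at an unadjusted p below 0.05 and 44 genes called by DESeq2. The members' fold changes ran from -0.92 ± 0.31 for Trim28 (unadjusted p = 0.00789, adjusted p = 0.255 by edgeR) to 0.27 ± 0.24 for Zfp57. Dppa3, called at 2.25 against whole oocytes at 18 cycles, had -0.06 ± 0.23 here. Against 14 cycles edgeR called 0 members and 0% of all genes, with 2512 genes at an unadjusted p below 0.05 and 83 called by DESeq2, and the members ran from -0.40 ± 0.25 (Uhrf1) to 0.22 ± 0.24 (Zfp57). On the ERCC scale 9 of the 9 members were lower against 10 cycles, from -2.50 ± 0.42 (Zfp57) to -3.71 ± 0.38 (Trim28), where 74.3% of all genes were called lower with a median of -2.82. Against 14 cycles on that scale, 9 of the 9 were lower, from -2.59 ± 0.42 (Zfp57) to -3.20 ± 0.41 (Uhrf1), where 76.0% of all genes were lower with a median of -2.85. The members called by the median ratio therefore differed between whole-oocyte references. These references differed in cycle number, oocyte and depth, which cannot be told apart from preparation. The comparison with 18 cycles also came from a fit of 8 libraries. The source of the different calls was not tested.

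**Figure D2:**
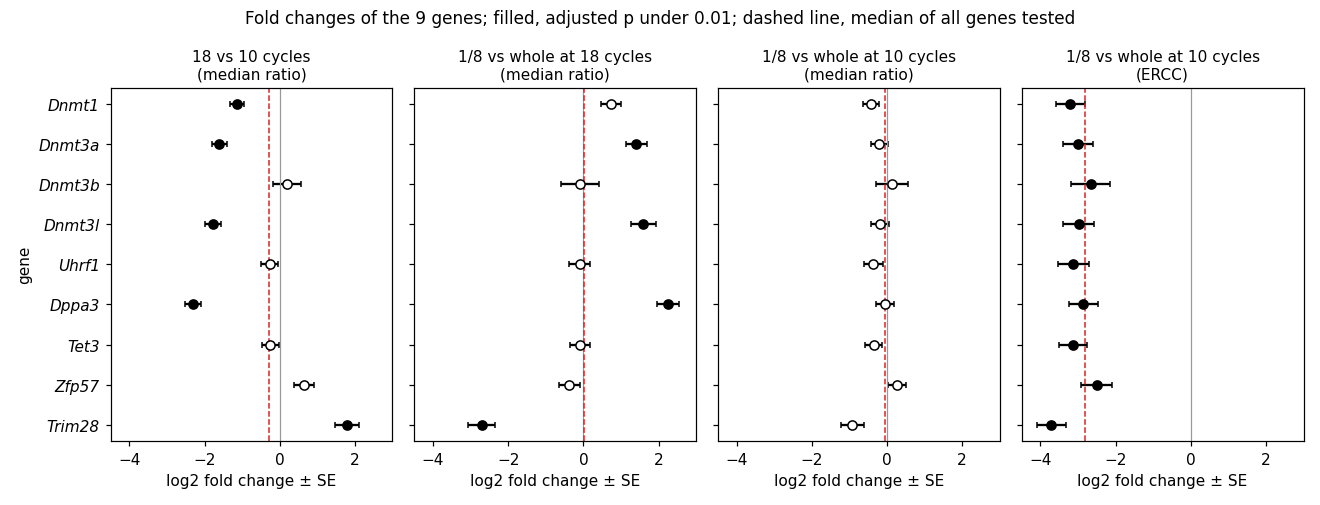
Log2 fold change ± SE of the 9 genes (horizontal axis) in 4 comparisons of 2 against 2 libraries; filled points had an adjusted p below 0.01 and the dashed line is the median of all genes tested. Dppa3 was at -2.30 between 10 and 18 cycles at -0.06 in 1/8 against 10 cycles, and at 2.25 in 1/8 against 18 cycles, where ERCC size factors gave -2.70; with ERCC size factors (not plotted) the values of Dnmt1, Dnmt3a, Dnmt3l, Uhrf1 and Tet3 between 10 and 18 cycles were positive.

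Base composition moved with the same comparisons. GC content was taken from the longest coding transcript of each gene. Across 13858 genes, which are not independent replicates, Spearman's correlation of the fold change from 10 to 18 cycles with GC content was 0.38. The median fold changes in 4 equal groups of genes by rising GC content were -0.84, -0.38, -0.09 and 0.78. The correlation was -0.41 for 1/8 against whole oocytes at 18 cycles and 0.01 for 1/8 against 10 cycles. Trim28, which rose at 18 cycles, had 59.6% GC and Dppa3, which fell most, had 45.3%. Dnmt1 had 54.0% GC, Dnmt3a 51.9%, and Dnmt3l 53.3%, and Zfp57, which was not called by the median ratio, had 45.8%. Uhrf1 (53.7%), Tet3 (53.4%) and Dnmt3b (53.1%), which were not called either, had GC contents within the range of the called Dnmt1, Dnmt3a and Dnmt3l. The part of base composition in the members' values was not tested.

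Markers of oocytes and of ovarian somatic cells were measured in the same libraries. The 12 oocyte markers were all above 0 in each library. They summed to 23795 and 21162 CPM at 10 cycles, 23711 and 25015 CPM at 14 cycles, and 7333 and 5896 CPM at 18 cycles. In the fractions their sums were 9247 and 8884 CPM at 1/2, 13195 and 14254 at 1/4, and 19307 and 19471 at 1/8. Gdf9, an oocyte growth factor, had the most counts of them, which also depend on length, in 10 libraries. Ooep had the most in library 1 at 1/2 and library 2 at 1/8. Of these 12 markers 8 were called lower at 18 than at 10 cycles, where 10.8% of all genes were, and 7 were called higher in 1/8 than in whole oocytes at 18 cycles, where 7.06% of all genes were, the directions that Dnmt1, Dnmt3a, Dnmt3l and Dppa3 had by the median ratio. With ERCC size factors 12 of the 12 markers were called lower at 1/8, where 87.5% of all genes were. The part of this shift in the members' values was not tested.

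The 12 cumulus and granulosa markers summed to 195 and 86.6 CPM at 10 cycles, 111 and 161 CPM at 14 cycles, and 65.0 and 28.1 CPM at 18 cycles. In the fractions they summed to 34.0 and 32.5 CPM at 1/2, 55.4 and 60.4 at 1/4, and 78.8 and 69.3 at 1/8. Of 10 tested, 2 were called lower at 18 than at 10 cycles, where 10.8% of all genes were. Against 14 cycles 3 of 10 were lower, where 10.7% of all genes were. At 1/8 against whole oocytes at 18 cycles, 1 of 7 was called higher (Cyp19a1), where 7.06% of all genes were. With ERCC size factors 7 of 7 were lower there, where 87.5% of all genes were. By counts, which also depend on length, Nr5a2 came first in 9 libraries, Cyp19a1 in both at 1/8, and Hsd3b1 in library 1 at 10 cycles (62.0 CPM). Fshr, the FSH receptor of granulosa cells, had 0 counts in both libraries at 10 cycles, library 1 at 18 cycles and the 6 fraction libraries. The 7 theca, stroma and blood markers summed to 31.6 CPM in library 1 at 10 cycles and to at most 8.40 CPM in the other 11, with Star first by counts wherever any was above 0. The part of somatic RNA in the members' values was not tested.

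For each member, the gene with the most similar log2(CPM + 1) over the 12 libraries was taken from 8859 genes averaging at least 10 CPM, with Pearson's r as a description of libraries that share depth and cycle number. Dnmt3l was most like Dnmt3a (r = 0.987), and Dnmt3a was most like Cldn25-ps (r = 0.989). Dppa3 was most like Gm815 (r = 0.996), Dnmt1 like Gdf9 (r = 0.977), Uhrf1 like Cgn (r = 0.952) and Tet3 like Trio (r = 0.968). Zfp57 was most like Wdr74 (r = 0.937), Trim28 like Lrrc47 (r = 0.982) and Dnmt3b like Stk10 (r = 0.859). The de novo enzyme and its cofactor therefore had the closest pair of profiles among members.

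Copies of the members took few counts. The pseudogene Dppa3-ps had at most 26 counts (0 to 2.18 CPM), against 448 counts or more for Dppa3, and Dnmt3l-ps1 and Dnmt3a-ps1 had 0 counts in the 12 libraries. Dnmt3c, the de novo paralogue of the male germ line, had at most 7 counts. Reads that match a member and its copy equally well cannot be assigned from these counts.

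Other genes of methylation and demethylation numbered 28, and 23 were tested between 10 and 18 cycles. Of these, 2 fell and 3 rose, where 10.8% of all genes fell and 12.3% rose, with a median of 0.30 against -0.29 for all genes. Ung, the uracil DNA glycosylase of base excision repair, had 97.9 and 83.1 CPM at 10 cycles and 325 and 339 CPM at 18 cycles, a fold change of 2.15 ± 0.20 (adjusted p = 8.10e-05). Xrcc1, a scaffold of single-strand break repair, was higher by 1.82 ± 0.19 (adjusted p = 0.000110) and Mbd3, a subunit of the NuRD complex, by 1.39 ± 0.19 (adjusted p = 0.000436). Tet1, a relative of Tet3, fell from 10.1 and 12.2 CPM to 0.663 and 1.76 CPM (-3.09 ± 0.65, adjusted p = 0.00399), with -0.90 and no call under ERCC size factors (adjusted p = 0.378). The RNA methyltransferase Trdmt1 had -2.12 ± 0.50 (adjusted p = 0.00786), or 0.08 with ERCC size factors. The call of Tet1 was lost without either library at 10 cycles (-3.26 and -2.91, adjusted p = 0.0176 and 0.0306) and without library 1 at 18 cycles (-2.30, adjusted p = 0.0398). Trdmt1 was called neither without 1 of the libraries at 10 cycles (-2.29 and -1.94, adjusted p = 0.0230 and 0.0461) or 14 cycles (-2.10 each, adjusted p = 0.0168 and 0.0193) nor without library 1 at 18 cycles (-1.57, adjusted p = 0.0657), and not in the fit of all 12 libraries (-2.08, adjusted p = 0.0134). Tdg, the glycosylase that removes oxidised methylcytosine, had at most 1 count in a library, and its pseudogene Tdg-ps had 0. Reads that match Tdg and a copy equally well cannot be assigned from these counts, so Tdg RNA was not shown to be absent.

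In 1/8 against whole oocytes at 18 cycles, 3 of the 21 genes tested from this list fell and 0 rose by edgeR in the fit of 8 libraries, where 8.69% of all genes fell and 7.06% rose, with a median of 0.03, beside 0.03 for all genes. Mbd3 had -1.75 ± 0.32 (adjusted p = 0.000371), Ung -1.64 ± 0.29 (adjusted p = 0.000319) and Xrcc1 -1.41 ± 0.32 (adjusted p = 0.00221). Xrcc1 was not called without library 1 at 18 cycles (-1.39, adjusted p = 0.0145) or library 2 at 1/8 (-0.97, adjusted p = 0.0427). Trdmt1 was not called here (2.35 ± 0.77, adjusted p = 0.0268), was called higher when all 12 libraries were fitted in 6 groups (2.31, adjusted p = 0.00955), and had -2.56 with ERCC size factors. These 3 genes had the highest mean level per length of the list over the 12 libraries, at 126 ± 47.5 for Mbd3, 115 ± 48.9 for Xrcc1 and 113 ± 59.6 for Ung (SD, n = 12).

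The list of chromatin context genes, which also holds the maternal-effect gene Nlrp2, numbered 20, and all were tested between 10 and 18 cycles. Of these, 6 fell and 2 rose, beside 10.8% and 12.3% of all genes, with a median of -0.33. Nlrp2, a maternal-effect gene of the subcortical complex, had 407 and 366 CPM at 10 cycles and 81.5 and 68.6 CPM at 18 cycles (-2.10 ± 0.20, adjusted p = 8.09e-05), and 0.16 with ERCC size factors. The imprint protector Zfp445, which like Zfp57 recruits Trim28, had -2.36 ± 0.33 (adjusted p = 0.000403), or -0.09 and no call with ERCC size factors (adjusted p = 0.892). The others that fell were Hira (-2.08), the deubiquitinase Usp7 (-1.78), the histone methyltransferases Setd2 (-1.35) and Nsd1 (-1.21), with 0.17, 0.42, 0.94 and 0.93 in that order under ERCC size factors. Hira, Setd2 and Nsd1 were named after their values were seen. Nsd1 was not called without library 1 or library 2 at 10 cycles (-1.24 and -1.17, adjusted p = 0.0285 and 0.0363), nor Setd2 without library 2 at 10 cycles (-1.33, adjusted p = 0.01004). Ctcf, the insulator protein, rose by 1.18 ± 0.24 (adjusted p = 0.00375) and Cxxc1, which binds unmethylated CG sites, by 1.15 ± 0.22 (adjusted p = 0.00247). Ctcf was not called without library 1 at 10 cycles (0.90, adjusted p = 0.0382) or library 2 at 18 cycles (1.04, adjusted p = 0.0131), and Cxxc1 was not called without either library at 10 cycles (1.09 and 1.20, adjusted p = 0.0250 and 0.0199).

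At 1/8 against whole oocytes at 18 cycles, 1 of 19 chromatin context genes fell and 2 rose, beside 8.69% and 7.06% of all genes, with a median of -0.07. Nlrp2 had a fold change of 2.02 ± 0.31 (adjusted p = 9.57e-05; -2.96 with ERCC size factors), Usp7 1.33 ± 0.28 (adjusted p = 0.00124; -3.62 with ERCC size factors) and Ctcf -1.19 ± 0.28 (adjusted p = 0.00351). Usp7 was not called without library 1 at 18 cycles (1.20, adjusted p = 0.0195) or library 2 at 1/8 (1.11, adjusted p = 0.0139), and Ctcf was not called without library 2 at 18 cycles (-1.05, adjusted p = 0.0229) or library 1 at 1/8 (-0.90, adjusted p = 0.0517). By level per length Nlrp2 (220.3 ± 143), Usp7 (186 ± 102) and Ctcf (151 ± 48.8) were highest of the list (SD, n = 12). Cxxc1 was not called at 1/8 (-1.16 ± 0.33, adjusted p = 0.0125), but was called lower by DESeq2 (adjusted p = 0.00485), with no filter (adjusted p = 0.00621), with the replicate block (-1.19, adjusted p = 0.00817), in the fit of all 12 libraries (-1.18, adjusted p = 0.00404) and without library 1 at 1/8 (-1.73, adjusted p = 0.00475).

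The demethylase Kdm1a, named after its values were seen, was not called at 1/8 against whole oocytes at 18 cycles (-1.54 ± 0.45, adjusted p = 0.0146), but was called lower by DESeq2 (adjusted p = 0.00839), with no filter (adjusted p = 0.000385), in the fit of all 12 libraries (-1.57, adjusted p = 0.00875) and without library 1 at 18 cycles (-2.28, adjusted p = 0.000435). At 1/4 Kdm1a was the 1 chromatin context gene called, where 0.426% of all genes were lower (-2.56 ± 0.47, adjusted p = 0.00500). Its whole-oocyte values at 18 cycles were 43.8 and 172 CPM, and the fold change was -1.17 without library 2 at 18 cycles (adjusted p = 0.244). The Kdm1a call was also lost without library 1 at 1/8 (-2.56, adjusted p = 0.0133), either library at 1/2 (-2.56 each, adjusted p = 0.0141 and 0.0137) or either library at 1/4 (-2.57 and -2.55, adjusted p = 0.0550 and 0.0893). From 10 to 18 cycles, a comparison with the same libraries at 18 cycles, the fold change of Kdm1a was 1.03 ± 0.50 and not called (adjusted p = 0.136). It was called higher there with no filter (1.02, adjusted p = 0.000383), with ERCC size factors (3.004, adjusted p = 1.28e-05) and without library 1 at 18 cycles (1.78, adjusted p = 0.000869), and was -0.34 without library 2 at 18 cycles.

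Of 13 methyl donor genes 12 were tested between 10 and 18 cycles, and 1 fell and 2 rose, beside 10.8% and 12.3% of all genes, with a median of -0.16. Mat2b, the regulatory subunit of the enzyme that makes S-adenosylmethionine, had 1240.4 and 1318 CPM at 10 cycles and 665 and 539.7 CPM at 18 cycles (-0.83 ± 0.20, adjusted p = 0.00770), while ERCC size factors gave 1.43 and called it higher (adjusted p = 0.00563). Leaving out any 1 library except library 1 at 18 cycles ended that call, with values from -0.91 (adjusted p = 0.0299, without library 1 at 10 cycles) to -0.73 (adjusted p = 0.0148, without library 2 at 18 cycles). Gnmt, glycine methyltransferase, rose by 1.63 ± 0.35 (adjusted p = 0.00444) and Ahcyl1 by 1.44 ± 0.22 (adjusted p = 0.000608). The call of Gnmt was lost without library 1 (1.33, adjusted p = 0.0472) or library 2 at 10 cycles (1.99, adjusted p = 0.0159) and without library 1 at 18 cycles (1.09, adjusted p = 0.0522), and that of Ahcyl1 without library 2 at 10 cycles (1.32, adjusted p = 0.0108). Mat2b (635 ± 212), Mthfd1 (99.5 ± 11.7) and Gnmt (80.1 ± 42.5) had the highest mean levels per length of this list (SD, n = 12).

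At 1/8 the methyl donor genes had 1 lower and 1 higher of 12 tested, beside 8.69% and 7.06% of all genes, with a median of -0.00 and 0.03 for all genes. Ahcyl1 had -1.47 ± 0.33 (adjusted p = 0.00226) and Mat2b 1.00 ± 0.26 (adjusted p = 0.00710; -3.99 with ERCC size factors). Ahcyl1 was not called without library 1 at 18 cycles (-1.48, adjusted p = 0.0140), library 1 at 1/8 (-1.39, adjusted p = 0.0208) or library 2 at 1/8 (-1.51, adjusted p = 0.0116). Mat2b was not called without either library at 18 cycles (1.06 and 0.90, adjusted p = 0.0258 and 0.0408), 1/8 (1.05 and 0.97, adjusted p = 0.0172 and 0.0285) or 1/4 (1.00 and 0.99, adjusted p = 0.0158 and 0.0167). With ERCC size factors, 19 of 21, 19 of 19 and 12 of 12 genes of the 3 lists were lower at 1/8, as were 9 of the 9 members and 87.5% of all genes.

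Promoter windows of 300 bases around transcription starts were read from RefSeq for 8 of the 9 members, without Dppa3 (17 windows, build GRCm38.p6), to set the CG content of Dnmt1, Dnmt3a and Dnmt3l, which moved together by the median ratio, beside that of Trim28, which moved the other way on that scale. Among 32817 such windows the median was 7 CG, and 94.6% held at least 1. For Dnmt1, Dnmt3a, Dnmt3l and Trim28 the window with the most CG is printed, together with the upstream window of Dnmt1. Capitals mark each CG, the dinucleotide that is methylated, and sequences run 5′ to 3′ on the gene's strand. Dnmt1 is shown at chr9:20959839-20960138 (minus strand, upstream start) with 2 CG and at chr9:20952574-20952873 (minus strand, downstream start) with 33. The oocyte form of Dnmt1 is known to start upstream of the somatic one, and the counts here sum over all starts of a gene. Dnmt3a is shown at chr12:3806910-3807209 (plus strand) with 47 CG and Dnmt3l at chr10:78042037-78042336 (plus strand) with 6. Trim28 is shown at chr7:13023902-13024201 (plus strand) with 23 CG.
Dnmt1 upstream promoter: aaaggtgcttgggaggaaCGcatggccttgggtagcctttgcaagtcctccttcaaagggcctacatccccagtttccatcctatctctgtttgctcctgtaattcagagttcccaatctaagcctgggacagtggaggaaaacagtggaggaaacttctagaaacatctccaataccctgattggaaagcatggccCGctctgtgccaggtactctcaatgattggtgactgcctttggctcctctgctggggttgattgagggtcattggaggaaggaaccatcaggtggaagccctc
Dnmt1 downstream promoter: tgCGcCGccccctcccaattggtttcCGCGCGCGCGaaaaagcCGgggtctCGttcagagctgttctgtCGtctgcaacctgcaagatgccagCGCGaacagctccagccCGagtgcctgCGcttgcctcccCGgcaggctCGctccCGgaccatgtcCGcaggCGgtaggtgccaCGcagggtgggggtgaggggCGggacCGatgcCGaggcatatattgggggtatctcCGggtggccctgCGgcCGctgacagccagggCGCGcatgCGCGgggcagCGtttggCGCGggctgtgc
Dnmt3a promoter: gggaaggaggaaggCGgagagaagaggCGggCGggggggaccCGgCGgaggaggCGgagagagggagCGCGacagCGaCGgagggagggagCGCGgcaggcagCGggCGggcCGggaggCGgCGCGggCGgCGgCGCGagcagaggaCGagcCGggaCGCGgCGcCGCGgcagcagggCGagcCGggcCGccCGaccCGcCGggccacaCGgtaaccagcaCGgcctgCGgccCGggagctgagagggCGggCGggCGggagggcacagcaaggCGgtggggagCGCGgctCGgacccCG
Dnmt3l promoter: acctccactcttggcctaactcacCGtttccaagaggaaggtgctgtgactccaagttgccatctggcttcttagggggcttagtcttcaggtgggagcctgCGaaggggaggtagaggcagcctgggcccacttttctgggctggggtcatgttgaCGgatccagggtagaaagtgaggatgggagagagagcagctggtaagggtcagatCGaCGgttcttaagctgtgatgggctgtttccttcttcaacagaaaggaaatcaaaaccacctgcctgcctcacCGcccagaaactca
Trim28 promoter: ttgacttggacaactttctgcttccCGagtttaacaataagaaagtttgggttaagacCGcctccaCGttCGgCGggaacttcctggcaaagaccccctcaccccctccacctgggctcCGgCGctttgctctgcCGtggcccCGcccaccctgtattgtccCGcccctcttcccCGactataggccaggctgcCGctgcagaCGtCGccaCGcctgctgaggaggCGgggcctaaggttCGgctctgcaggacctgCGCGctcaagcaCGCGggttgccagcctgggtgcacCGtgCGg

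The share of all windows with as many CG or fewer was 23.3% for the upstream window of Dnmt1, 92.3% for its downstream window, 98.8% for Dnmt3a, 47.9% for Dnmt3l and 80.0% for Trim28. The windows not printed held 12 CG in Dnmt1, 46 and 18 in Dnmt3a, 4 and 3 in Dnmt3l, 30 in Dnmt3b, 12 and 33 in Uhrf1, 22 in Tet3, and 4, 6 and 9 in Zfp57. CG content thus varied between windows of the same gene. A CG count describes the window and is no measure of methylation.

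In the annotation of GRCm38, Dnmt1 (ENSMUSG00000004099) lies on the minus strand of chromosome 9 from 20907209 to 20959888, with 7377 bases of merged exons. Dnmt3a (ENSMUSG00000020661) lies on the plus strand of chromosome 12 from 3806007 to 3914443 with 16642 bases of exon, Dnmt3b (ENSMUSG00000027478) on the plus strand of chromosome 2 from 153649450 to 153687730 with 5106, and Dnmt3l (ENSMUSG00000000730) on the plus strand of chromosome 10 from 78041947 to 78063622 with 2988. Uhrf1 (ENSMUSG00000001228) and Zfp57 (ENSMUSG00000036036) are on the plus strand of chromosome 17, from 56303321 to 56323486 with 4259 bases of exon and from 37001163 to 37010635 with 3786. Dppa3 (ENSMUSG00000046323) on the plus strand and Tet3 (ENSMUSG00000034832) on the minus strand of chromosome 6 run from 122626410 to 122630272 with 892 bases of exon and from 83362373 to 83459084 with 16695. Trim28 (ENSMUSG00000005566) is on the plus strand of chromosome 7 from 12999114 to 13031035 with 4158 bases of exon.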

How the data were processed

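Counts of 12 libraries, by gene and by ERCC molecule, were used as deposited by the authors, without normalization. The submitters' processing notes name cutadapt 2.5, STAR 2.7.2a and HTSeq 0.9.1, while the methods give other versions. The methods also state default parameters for HTSeq. Whether these held for the deposited counts, and so strand use in counting, was not settled. Reads on no feature (6.90% to 10.8%) and ambiguous reads (2.64% to 4.53%) were left out of totals. Genes were named and measured with GENCODE M21 (GRCm38), and 179 genes without a length were left out of per-length scaling. Counts were tested with edgeR 4.0.16 in R 4.3.3 on 6 whole oocytes, on 8 libraries amplified for 18 cycles and on all 12, keeping genes with 5 or more counts in 2 or more of the libraries fitted, with Benjamini-Hochberg adjustment over all genes. Scripts were tested on simulated data. Members and lists were chosen with earlier results of these data known. Named from each list were the 3 genes of highest level per length and up to 2 called rises and 2 falls in 18 against 10 cycles and in 1/8 against 18 cycles, plus the gene most like each member. Alternatives were DESeq2 1.42.0, TMM, ERCC or total ERCC size factors, testing without a filter, a filter of 10 or more counts in every library, the replicate number as a block, all 12 libraries in 6 groups, and leaving out each library.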

Additional observations from a re-analysis of the deposited data

How the results depend on the processing

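With ERCC size factors the log2 fold change from 10 to 18 cycles was reversed for Dnmt1 (1.08), Dnmt3a (0.62), Dnmt3l (0.44), Uhrf1 (2.05) and Tet3 (1.92), where Uhrf1 and Tet3 were called higher, as were Dnmt3b (2.33) and Zfp57 (3.02). It was reversed from 14 to 18 cycles for Dnmt1 (1.30), Dnmt3a (0.74), Dnmt3b (2.11), Dnmt3l (0.50) and Uhrf1 (2.01), where Dnmt1, Dnmt3b and Uhrf1 were called higher, as were Zfp57 (2.97) and Tet3 (2.21); the cause was not tested. From 10 to 18 cycles it was also reversed for Trdmt1 (0.0841), Nlrp2 (0.16), Usp7 (0.42), Mat2b (1.43, called higher), Hira (0.17), Nsd1 (0.93) and Setd2 (0.94). With TMM in place of the median ratio, 0 members were called at 1/2. Leaving out 1 library at a time, members called ranged from 3 to 6 in 18 against 10 cycles, 4 to 6 in 18 against 14 cycles, 0 to 1 at 1/2, 0 to 1 at 1/4 and 2 to 4 at 1/8 by the median ratio, and from 2 to 9 at 1/2 and 5 to 9 at 1/4 on the ERCC scale. A group left with 1 library was assumed to vary like the others. Genes called changed by over 1.5 times from 0 to 2 (DESeq2) and 9 (no filter) in 14 against 10 cycles, from 4053 and 4072 to 8348 and 8400 with ERCC size factors in 18 against 10 and 14 cycles, from 18 at 1/2 to 152 (DESeq2), 218 (no filter), 50 (all 12 libraries) and 1 (TMM), and from 68 at 1/4 to 241, 205 and 117 by the first 3 of these. Leaving out 1 library, genes called ranged from 1616 to 4007 in 18 against 10 cycles, 1815 to 3958 in 18 against 14 cycles, 0 to 31 at 1/2, 0 to 104 at 1/4 and 1098 to 2133 (from 2329) at 1/8 by the median ratio, and from 1930 to 8908 (from 7697) at 1/2 and 6703 to 10592 (from 10301) at 1/4 on the ERCC scale. With at least 10 counts in every library, 12937, 13401 and 13710 genes on the ERCC scale became 8329, 8314 and 8316, where fewer genes were tested. For 1/8 against 10 and 14 cycles, an alternative chosen after seeing the data, 0 genes became 84 and 153 without a filter. A replicate block gave 4379 genes in 18 against 10 cycles, 73 at 1/2, 126 at 1/4, 2641 at 1/8 and 1 in 1/8 against 14 cycles by the median ratio. Deviations of same-numbered libraries correlated between -0.14 and 0.13 over 9 pairs of groups, and the numbers were not taken as pairing. Between fraction groups, which alone could share oocytes, the correlations were -0.086 (1/2 and 1/4), 0.068 (1/2 and 1/8) and 0.017 (1/4 and 1/8). The labels do not link fractions to oocytes, so these values cannot settle whether same-numbered fractions shared an oocyte. Crossing the numbers at 14 cycles, chosen after seeing the data as well, gave 2 genes in 14 against 10 cycles. Of the members' fold changes under the alternatives, 1467 kept their side of the threshold, some of them uncalled and of the other sign, 43 lost a call, 10 gained one, and 10 were reversed with a call in 1 or both fits. Ranks by level per length moved by less than the spread in 117 of 117 cases. Adding reads on no feature to the totals moved 29 of 54 mean CPM values by more than the SD of their 2 libraries. Depth limits Dnmt3b most, with 27 to 363 counts.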
